A study of Mus musculus with 123 samples.

Results

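The Hox clusters are 4 groups of neighbouring genes on 4 mouse chromosomes, and the peaks of histone H3 lysine 4 (H3K4) methylation that 3 deposited lists place over them are described here. The 38 genes considered are Hoxa2, Hoxa3, Hoxa4, Hoxa5, Hoxa6, Hoxa7, Hoxa9, Hoxa10, Hoxa11 and Hoxa13 in the Hoxa cluster. In the Hoxb cluster they are Hoxb1, Hoxb2, Hoxb3, Hoxb4, Hoxb5, Hoxb6, Hoxb7, Hoxb8, Hoxb9 and Hoxb13. The Hoxc genes are Hoxc4, Hoxc5, Hoxc6, Hoxc8, Hoxc9, Hoxc10, Hoxc11, Hoxc12 and Hoxc13, and the Hoxd genes are Hoxd1, Hoxd3, Hoxd4, Hoxd8, Hoxd9, Hoxd10, Hoxd11, Hoxd12 and Hoxd13. Peaks were chosen by position alone, as those that overlap 1 window of the mm9 build per cluster. The windows were chr6:52090001-52230000 for Hoxa (140 kb), chr11:96040001-96240000 for Hoxb (200 kb), chr15:102740001-102880000 for Hoxc (140 kb) and chr2:74485001-74615000 for Hoxd (130 kb). They held 115 of the 60226 peaks: 46 of 26292 in the list named ES1, 40 of 21543 in ES2 and 29 of 12391 in ES3.

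The series profiled H3K4me2 and H3K4me3 by droplet single-cell ChIP-seq, in which the chromatin of each cell is cut by MNase and barcoded in a drop before immunoprecipitation. Its 123 libraries, 86 for H3K4me2 and 37 for H3K4me3, came from the mESC line V6.5 (embryonic stem cells of the mouse), from fibroblasts of mouse embryos (MEF) and from EML, a line of blood progenitors, alone or mixed. The 3 lists belong to the whole series, and no label ties one to a library, a mark or a group of cells, so they are called by their names. With 1 list of each name there are no replicates and no test, and the lists are compared as lists.

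Hox genes encode homeodomain transcription factors that give cells their position along the body axis of the embryo. Within a cluster the genes lie in the order in which they are used from head to tail, with low-numbered genes at the anterior end and high-numbered genes at the posterior end. In embryonic stem cells most Hox genes are held silent by Polycomb proteins, and their promoters are textbook examples of bivalent chromatin, which carries methylated H3K4 together with methylated H3 lysine 27. With rising coordinate the Hoxa window ran from the Hoxa2 side to the Hoxa13 side, while the other windows started at the Hoxb13, Hoxc13 and Hoxd13 sides and ended at the Hoxb1, Hoxc4 and Hoxd1 sides.

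The sequence at Hox promoters is shown first because bivalent H3K4 methylation is known for promoters rich in the dinucleotide CG. RefSeq promoter sequences (GRCm38.p6) were matched by symbol for 22 of the 38 genes, with 24 promoters in all: 9 genes of Hoxa, 3 of Hoxb, 1 of Hoxc and 9 of Hoxd. Over the 300 bases from 250 before to 50 after the start, the median number of CG was 14.5 in these promoters against 7 in all 32851 RefSeq promoters. A ratio of observed to expected CG of at least 0.6 was reached by 12 of 24 promoters (50.0%), against 35.8% of all promoters. The letters CG read the same on both strands, so 1 strand was counted. The range within the clusters was wide, from 4 CG at Hoxa9, Hoxd4 and 1 promoter of Hoxd11 to 45 at Hoxa13. The 250 bases before the start follow for the matched promoter with the most CG in each cluster, and for Hoxa9 as a CG-poor contrast to Hoxa13, with each CG in capitals and each sequence read 5′ to 3′ on the strand of its gene. Positions are in GRCm38.p6 and cannot be set against the mm9 positions of the peaks.
Hoxa13 (chr6:52260881-52261130, minus strand): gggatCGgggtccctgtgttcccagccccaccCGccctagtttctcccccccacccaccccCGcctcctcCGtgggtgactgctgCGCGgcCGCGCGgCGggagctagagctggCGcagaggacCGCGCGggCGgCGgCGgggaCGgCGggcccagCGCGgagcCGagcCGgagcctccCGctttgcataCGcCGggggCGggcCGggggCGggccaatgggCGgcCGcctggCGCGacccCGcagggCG
Hoxa9 (chr6:52227371-52227620, minus strand): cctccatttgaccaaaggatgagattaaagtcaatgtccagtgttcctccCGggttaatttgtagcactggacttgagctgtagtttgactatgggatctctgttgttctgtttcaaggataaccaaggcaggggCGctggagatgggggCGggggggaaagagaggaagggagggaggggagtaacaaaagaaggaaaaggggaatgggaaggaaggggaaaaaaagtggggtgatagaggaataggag
Hoxb4 (chr11:96318017-96318266, plus strand): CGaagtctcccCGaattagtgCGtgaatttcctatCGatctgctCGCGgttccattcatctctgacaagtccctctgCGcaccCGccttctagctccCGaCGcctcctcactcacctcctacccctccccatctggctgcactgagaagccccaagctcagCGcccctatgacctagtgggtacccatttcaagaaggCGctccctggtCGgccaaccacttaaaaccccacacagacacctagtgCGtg
Hoxc4 (chr15:103034145-103034394, plus strand): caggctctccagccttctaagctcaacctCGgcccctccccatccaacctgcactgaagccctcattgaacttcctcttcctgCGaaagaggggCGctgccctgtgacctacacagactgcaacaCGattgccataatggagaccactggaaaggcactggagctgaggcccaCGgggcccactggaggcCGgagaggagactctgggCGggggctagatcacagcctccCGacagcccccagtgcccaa
Hoxd13 (chr2:74667975-74668224, plus strand): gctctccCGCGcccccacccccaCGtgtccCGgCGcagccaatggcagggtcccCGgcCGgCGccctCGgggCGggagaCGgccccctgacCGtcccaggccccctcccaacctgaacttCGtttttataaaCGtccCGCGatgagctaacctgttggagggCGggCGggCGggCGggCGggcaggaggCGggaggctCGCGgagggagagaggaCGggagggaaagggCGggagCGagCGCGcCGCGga
The Hoxa13 sequence holds 35 CG and that of Hoxd13 31, spread over the whole stretch. Both encode factors of the posterior ends of their clusters, with known roles in limb and genital development. Hoxb4, known for its role in blood stem cells, has 14 in the stretch shown and Hoxc4 has 8, while Hoxa9, a gene well known in leukaemia, has 3. Since the builds differ, no peak was assigned to a promoter or to a single gene, and what follows is about clusters and stretches of them.

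Peaks covered 18.3% of the 4 windows in ES1 (111.7 kb), 13.2% in ES2 (80.5 kb) and 7.34% in ES3 (44.8 kb). Over the genome up to the last peak of each chromosome the lists covered 2.43%, 1.77% and 0.866%, so the Hox windows were covered 7.54, 7.45 and 8.47 times as densely as the genome. Stretches of the same length on both sides of each window (1220 kb in all) were covered to 7.25% by ES1, 4.79% by ES2 and 2.54% by ES3. Pooled over the 4 clusters, the windows thus had more cover than their flanks in every list, and the order of the lists in the windows, ES1 before ES2 before ES3, was their order over the genome. With lists of equal length, that order depended on how the peaks were ranked for the cut. With ES1 and ES2 cut to the 12391 peaks of the highest score, the windows were covered to 6.94%, 5.04% and 7.34%, and ES3 came first. With the lists cut by reads instead, the values were 10.8%, 9.53% and 7.34%, in the order of the full lists.

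Hoxa was the most covered cluster in ES1, at 30.0%, with 17.4% in ES2 and 12.7% in ES3. Hoxc followed with 21.7% in both ES1 and ES2 and 12.5% in ES3. Hoxb was covered to 13.0%, 9.13% and 2.09%, and Hoxd to 10.2%, 5.77% and 4.11%. In all 3 lists as deposited Hoxa and Hoxc were therefore more covered than Hoxb and Hoxd. With the lists cut to equal length by reads, Hoxb passed Hoxc in ES1, at 11.2% against 10.4%. The windows are 130 to 200 kb long, and among 17570 tiles of 150 kb over the genome, 0.649% were covered at least as much as Hoxa in ES1, 1.66% in ES2 and 0.757% in ES3. For Hoxc these shares were 1.81%, 0.825% and 0.791%, and for Hoxd 7.59%, 9.82% and 6.47%. For Hoxb they were 5.46%, 5.71% and 12.6%, so that Hoxb stood less far above the genome in ES3 than the other clusters did.

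**Figure D1:**
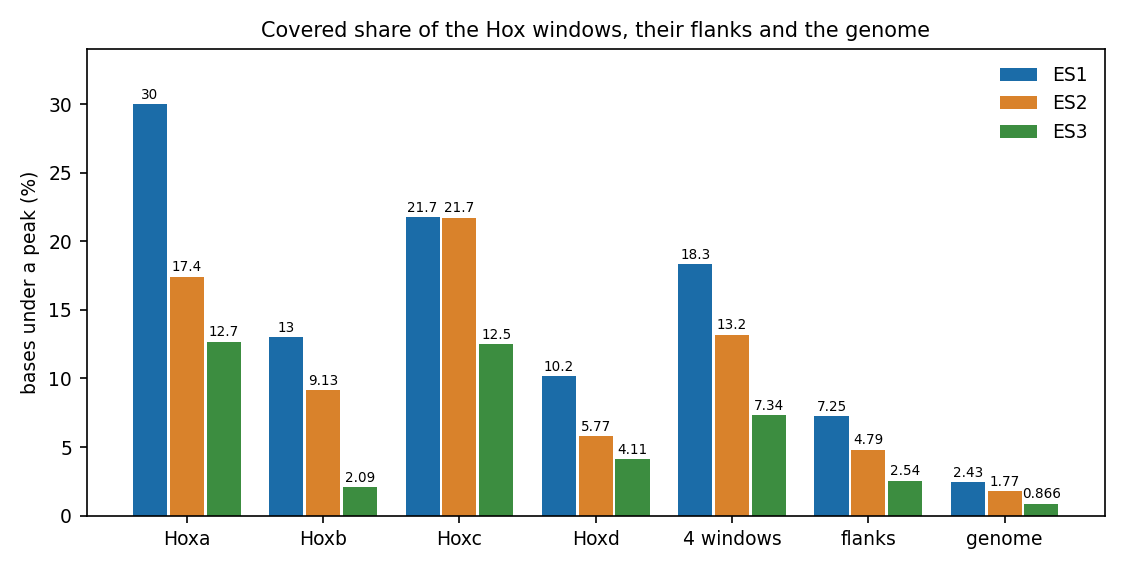
Share of bases under a peak (%, y axis) in each Hox window, in the 4 windows together, in their flanks and over the genome, with 1 bar per list. Bars fall from ES1 to ES3 in Hoxa, Hoxb and Hoxd, whereas ES1 and ES2 are both at 21.7% in Hoxc; Hoxb in ES3 is the lowest bar among the single windows, at 2.09%.

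The flanks differed between clusters. The 200 kb before the Hoxb window, beyond Hoxb13, were covered to 22.9% in ES1, 10.7% in ES2 and 6.64% in ES3, each above the Hoxb window itself, whereas the 200 kb after it held 0.3%, 0.25% and 0%. Before the Hoxc window, beyond Hoxc13, 140 kb held no peak of any list. The 140 kb before the Hoxa window, on the Hoxa2 side, were covered to 17.9%, 13.7% and 7.94%, and the 140 kb on the Hoxa13 side to 4.73%, 5.91% and 1.10%. Both Hoxd flanks stayed at or under 2.14% in every list. Hoxa, Hoxc and Hoxd thus had more cover than both of their flanks in every list, and Hoxb more than 1 flank.

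Set against each other, ES1 covered 2.36 times the bases of ES3 in Hoxa, 6.24 times in Hoxb, 1.74 times in Hoxc and 2.47 times in Hoxd. A ratio of at least 2 was thus reached in 3 of 4 windows, against 78.6% of the 1775 tiles that had at least 10% under a peak of any list, a share close to the background. With lists of equal length the count was 1 of 4 by reads, against 47.3% of the same tiles, and 0 of 4 by score, against 16.9%. ES1 covered 1.72, 1.43, 1.00 and 1.76 times the bases of ES2, so 0 of 4 windows reached 2, against 12.6% of tiles. ES2 covered 1.37, 4.37, 1.74 and 1.40 times the bases of ES3, which made 1 of 4 windows against 50.4%. No window passed 2 in the other direction, which was also rare among tiles, at 0.113% for ES2 over ES1, 0.0563% for ES3 over ES1 and 0.225% for ES3 over ES2. As a share of its ES1 cover, the ES3 cover was 42.3% in Hoxa, 16.0% in Hoxb, 57.4% in Hoxc and 40.5% in Hoxd, with a median of 35.5% over the tiles. Hoxb lay low in that distribution, with 11.2% of tiles at or below it, and Hoxc high, with 88.0% at or below it. With the lists cut to equal length by reads, ES1 still covered 5.38 times the bases of ES3 in Hoxb, whereas by score it covered 0.164 times and ES3 was the larger. The cut by score was made over the whole genome, and ES3 was not cut. Median scores on chromosome 11, which carries Hoxb, were 10.0 in ES1 and 9.12 in ES2, against 14.7 and 12.75 in the whole lists. The part of this difference in the Hoxb result was not tested. In Hoxc, ES1 covered 0.833 times the bases of ES3 by reads and 0.993 times by score, so the direction turned there under both. The ratio was 1.25 by reads and 1.18 by score in Hoxa, and 1.31 by reads and 0.615 by score in Hoxd, where it turned under the latter.

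**Figure D2:**
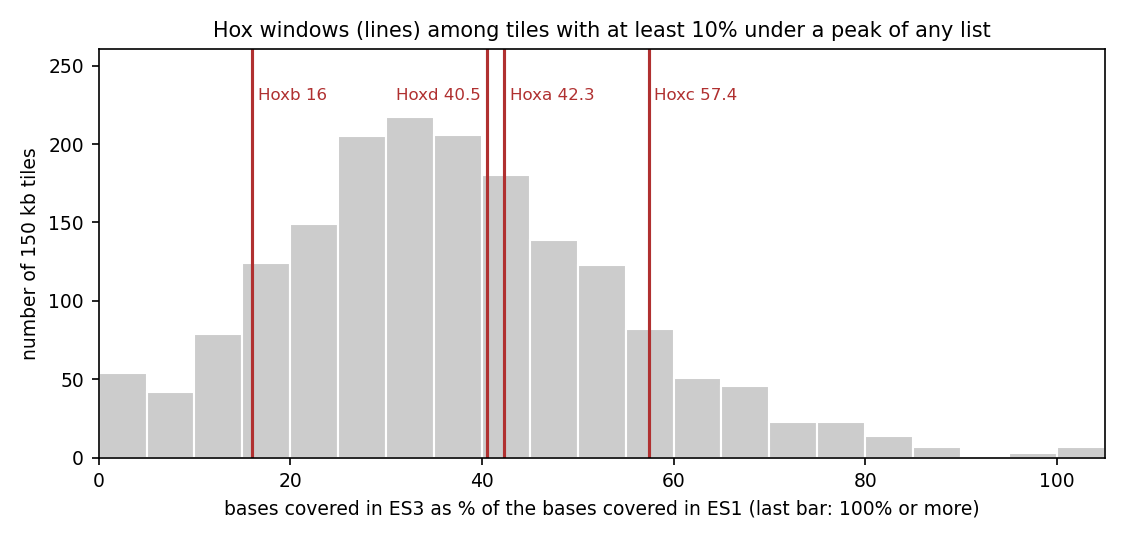
Histogram of 1775 tiles of 150 kb by the bases covered in ES3 as a percentage of those covered in ES1 (x axis, bins of 5 percentage points) with the number of tiles on the y axis; red lines mark the 4 Hox windows. Hoxa and Hoxd sit near the middle, Hoxb at 16.0% toward the left and Hoxc at 57.4% toward the right. All 4 lie between the lowest and the highest decile of the tiles, 15.2% and 59.7%.

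The score of a peak times the length of its inner interval, a stretch deposited with each peak, was a whole multiple of 1 unit per chromosome and list, and the multiple was taken as its reads. The mean number of reads per kb of chromosome was taken from that unit, which assumes that the score is a density divided by the mean density of the chromosome. On that reading of the score, mean read depth on these chromosomes differed from that of ES1 by at most 1.14 times. On chromosome 11, which carries Hoxb, that mean was 1.45 in ES1, 1.51 in ES2 and 1.30 in ES3. On chromosome 6 it was 0.981, 1.12 and 1.01, on chromosome 15 it was 1.04, 1.15 and 1.01, and on chromosome 2 it was 1.07, 1.22 and 1.14. The lower cover of Hoxb in ES3 went with a mean depth on chromosome 11 of 0.898 times that of ES1, and the part of depth in the result was not tested. The peak with the fewest reads on each of these chromosomes had 9 or 10 in its inner interval, so that no called place had fewer.

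Hoxa carried the most peaks in the lists as deposited, with 17 for ES1, 16 for ES2 and 12 for ES3, over a span of 117.4 kb, 118.0 kb and 117.0 kb from the first to the last. The spans differed by at most 1 kb, while ES1 covered 2.36 times the bases of ES3. The lists are of unequal length. With ES1 and ES2 cut to equal length by reads the ratio was 1.25, with 5 peaks in ES1 and 6 in ES2. Cut by score it was 1.18, with 10 and 12. ES3 was not cut, and ranking by reads counts the inner interval alone. Inner intervals made up 46.1% of the bases of the ES1 peaks of Hoxa and 70.4% of those of ES3. The part of list length in the ratio was not tested. The widest ES1 peak of all 4 windows lay here, at chr6:52152736-52163325, with 10590 bp and 47 reads in its inner 3346 bp (exact Poisson 95% interval 34.5 to 62.5). ES2 had 2 peaks over the same stretch, with 37 reads in 2221 bp of inner intervals, and ES3 had 3, with 34 reads in 2372 bp. These 2 peaks of ES2 covered 48.9% of the ES1 peak and the 3 of ES3 covered 33.0%. In the 557 other ES1 peaks of at least 10 kb, ES2 covered 68.4% of the bases and ES3 41.9%. Single peaks among these varied widely. Between the lowest and the highest decile, ES2 covered from 36.9% to 92.4% and ES3 from 13.5% to 70.95%, and the Hoxa peak lay inside both ranges.

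The widest ES2 peak of Hoxa lay at the Hoxa2 side, at chr6:52106764-52111452, with 4689 bp. The widest ES3 peak was at the same place, chr6:52106881-52110740, with 3860 bp and 20 reads in its inner interval, the most of any ES3 peak in the window. ES1 had 2 narrower peaks there, of 958 bp with 12 reads and 1742 bp with 18 reads, which left a break of 1121 bp that lay wholly under the peaks of both other lists. This is a stretch of Hoxa where ES1 was the more broken list. The most reads in the inner interval of an ES2 peak of Hoxa were 30 (20.2 to 42.8), at chr6:52165698-52167962, where ES1 had 28 reads (18.6 to 40.5) and ES3 no peak. The ES1 and ES2 counts agree within counting error at a place where ES3 called nothing. The ES3 reads at such a place are not known.

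Along Hoxa the peaks were most dense in the 10 kb bin from 60 to 70 kb in ES1, covered to 77.7%, and in ES2, covered to 42.9%. In ES3 that bin was covered to 18.3%, and the most covered was the bin from 10 to 20 kb, on the Hoxa2 side, with 31.2%. From 100 kb to the end of the window, on the Hoxa13 side, no bin passed 13.0% in ES1, 12.9% in ES2 or 9.25% in ES3. The Hoxa13 promoter shown above, the richest in CG of those matched, is that of the last gene on this sparse side, but it could not be placed on the mm9 map.

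Hoxb carried 8 peaks of ES1 but 7 of ES2 and 3 of ES3. A region at chr11:96110115-96117865, about 70 to 78 kb into the window, was a single ES1 peak of 7751 bp with 97 reads (78.7 to 118). In ES2 it held a peak of 5274 bp with 53 reads (39.7 to 69.3) in its inner 5180 bp. In ES3 it held 2 peaks, of 1423 bp with 16 reads (9.15 to 26.0) and of 1397 bp with 20 reads (12.2 to 30.9). These were the widest peak and the peak with the most reads in its inner interval of Hoxb in ES1, ES2 and, for each of the values, ES3. The reads per kb were 12.5 in ES1, 10.2 in ES2 and 12.8 in the ES3 peaks.

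The other Hoxb region called in all 3 lists was chr11:96213324-96216348, toward Hoxb1, where ES1 had 41 reads (29.4 to 55.6) in 2901 bp, ES2 14 (7.65 to 23.5) in 936 bp and ES3 14 (7.65 to 23.5) in 1244 bp. These 2 regions held all 3 ES3 peaks. ES3 had no peak at chr11:96060850-96065547, toward Hoxb13, where the ES1 peak spanned 4491 bp with 18 reads and the ES2 peak 4642 bp with 19 reads. ES3 likewise had none at chr11:96121376-96125467, where ES1 had 1 peak of 3579 bp and ES2 had 2. In Hoxb no base was covered by ES3 and not by ES1. Between 96065548 and 96110114 lay 44567 bp with no peak of any list, the longest such stretch in the 4 windows.

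In Hoxc the lists had 13, 12 and 11 peaks. Its main region, chr15:102760168-102770838, was 1 ES2 peak of 10671 bp with 103 reads (84.1 to 125), the most in the inner interval of any Hox peak. That interval was the whole peak, as in 28 of the 46 ES1, 26 of the 40 ES2 and 19 of the 29 ES3 peaks. In this region ES1 had a peak of 8893 bp, with 10 reads (4.80 to 18.4) in the 501 bp of its inner interval. ES3 had a peak of 4135 bp with 40 reads (28.6 to 54.5). The ES1 reads outside the inner interval are unknown, so only the widths can be compared with ES1 at this place. The density in ES2 and ES3 was 9.65 and 9.67 reads per kb. The 10 kb bin from 20 to 30 kb, on the Hoxc13 side, was the highest bin of the window in each list, at 83.6% for ES1, 98.3% for ES2 and 41.4% for ES3.

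The most reads in the inner interval of an ES1 peak of Hoxc were 35 (24.4 to 48.7), at chr15:102806266-102807730, a peak of 1465 bp counted over its whole length. ES3 had 25 reads (16.2 to 36.9) in a peak of 1936 bp there, and ES2 a peak of 3469 bp with 10 reads in an inner 500 bp. At chr15:102828392-102831485 the inner interval was the whole peak in all 3 lists, and ES1 had 29 reads (19.4 to 41.7), ES2 had 22 (13.8 to 33.3) and ES3 had 27 (17.8 to 39.3). These peaks were 2866, 1958 and 2144 bp wide, with 10.1, 11.2 and 12.6 reads per kb. The intervals of the counts overlap, and a difference in reads was not tested. In contrast, chr15:102840883-102846295, toward Hoxc4, was a single ES2 peak of 5226 bp with 48 reads (35.4 to 63.6), 2 peaks in ES1 with a break of 1459 bp between them, and no peak in ES3.

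Hoxd was the most thinly covered cluster in ES1 and ES2 as deposited, where they had 8 and 5 peaks, and ES3 had 3. With the lists cut by score Hoxb was thinner, at 0.343% in ES1 and 0.251% in ES2 against 2.53% and 3.7% in Hoxd. Median scores on chromosome 11, with Hoxb, were 10.0 in ES1 and 9.12 in ES2. On chromosome 2, with Hoxd, they were 13.3 and 11.15, and the part of this difference in the ranking was not tested. Only chr2:74494426-74497205, toward Hoxd13, was called in all 3 lists, with 13 reads (6.92 to 22.2) in 1182 bp of ES1, 25 (16.2 to 36.9) in 2695 bp of ES2 and 19 (11.4 to 29.7) in 1625 bp of ES3. Here ES2 had the widest peak and ES1 the narrowest, against the order over the whole window. The widest peaks of ES1 and ES2 lay at chr2:74517205-74520527, with 3291 bp and 21 reads in ES1 and 3309 bp and 15 reads in ES2, and no peak in ES3. The widest ES3 peak, of 3073 bp with 19 reads (11.4 to 29.7), lay at chr2:74534623-74537695, where ES1 had 1999 bp with 25 reads (16.2 to 36.9) and ES2 no peak.

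**Figure D3:**
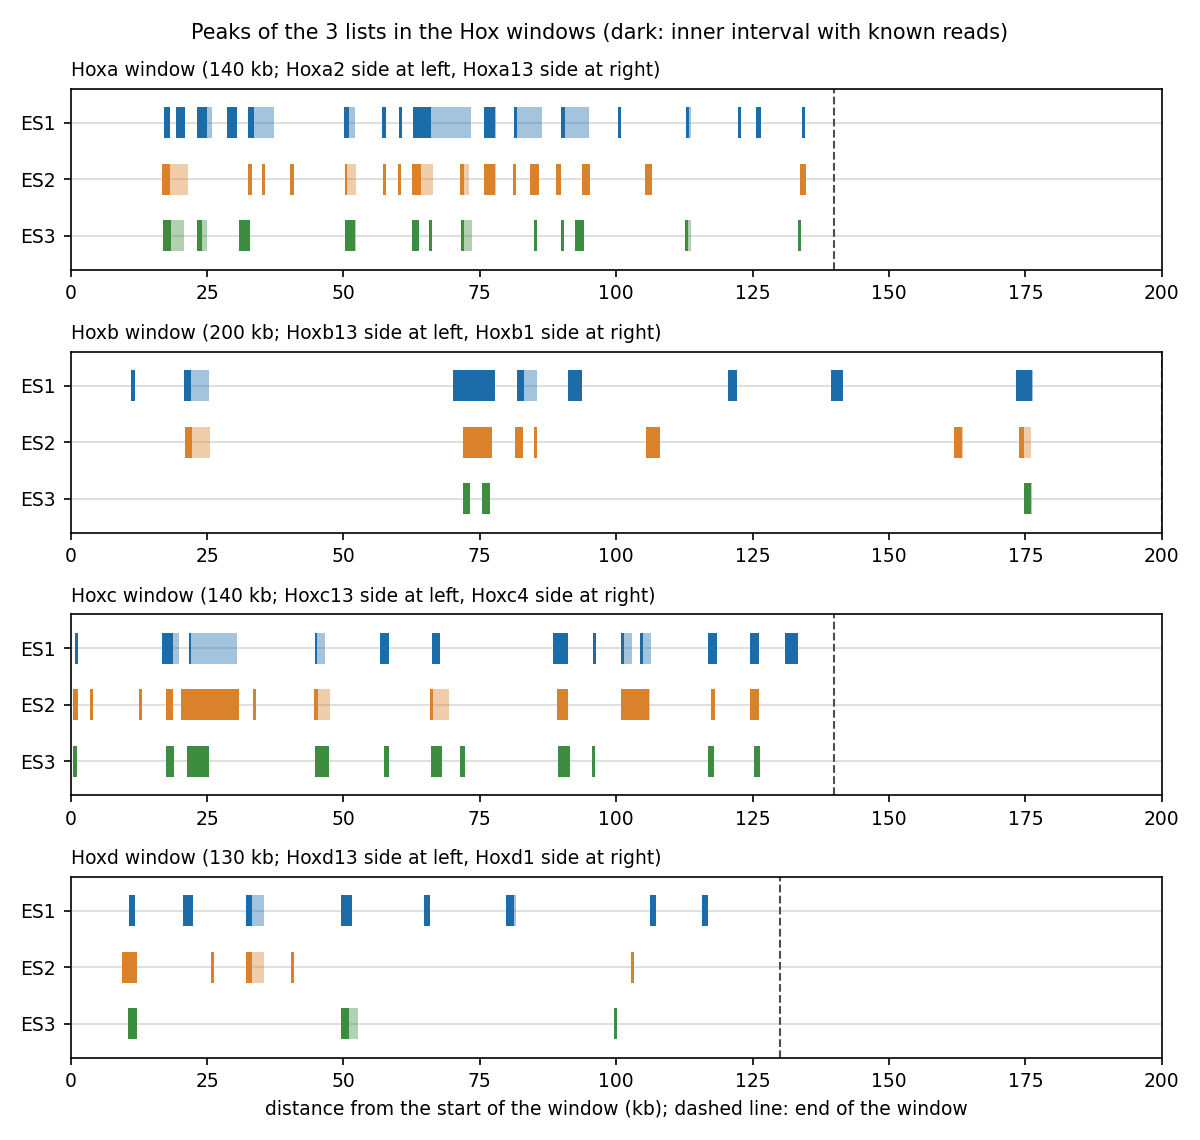
Peaks of ES1, ES2 and ES3 (rows) along each Hox window, with the distance from the start of the window in kb on the x axis; dark colour marks the inner interval and pale colour the rest of the peak. ES3 has 3 peaks in Hoxb, at 71.9, 75.5 and 174.8 kb, while of its 11 peaks in Hoxc 10 meet a peak of ES1 and 8 a peak of ES2.

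The windows held 5 ES1 peaks, 3 ES2 peaks and 0 ES3 peaks of 5 kb or more, against 9.95%, 6.96% and 3.59% of all peaks of the lists. The 5 of 46 and 3 of 40 are near those shares. Hoxa held 3 of the ES1 peaks of that width and Hoxb and Hoxc 1 each, while ES2 had 1 in Hoxb and 2 in Hoxc. The median width over the windows was 1892.5 bp for ES1, 1471.5 for ES2 and 1397 for ES3, against 1684, 1660 and 1517 bp in the whole lists. Inside the inner intervals the windows held 934 ES1 reads (875 to 996), 784 ES2 reads (730 to 841) and 470 ES3 reads (429 to 515), or 14.0, 13.0 and 12.5 reads per kb. These densities are those of called places, none with under 9 reads, and the inner intervals made up 66.7 of 111.7 kb in ES1 and 37.6 of 44.8 kb in ES3.

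Breaks, the stretches between neighbouring peaks of a list inside a window, follow in number from the peaks, so that ES1 had 42, ES2 had 36 and ES3 had 25. Every break was longer than 1 kb. In Hoxa the median break was 3.06 kb in ES1, 3.79 kb in ES2 and 5.92 kb in ES3, and the longest 12.7, 27.1 and 19.8 kb. The longest ES2 break of Hoxa, chr6:52196519-52223636, took up most of the Hoxa13 side, and the longest of ES3, chr6:52203607-52223429, lay within it. The longest of ES1, chr6:52127334-52140031, lay toward Hoxa2. In Hoxc the medians were 6.95, 8.53 and 8.87 kb and the longest breaks 20.7, 19.8 and 20.7 kb, which makes Hoxc the cluster whose breaks differed least.

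In Hoxb the longest break was 44.8 kb in ES1, chr11:96065341-96110114, 53.8 kb in ES2, chr11:96148117-96201908, and 97.9 kb in ES3, chr11:96116869-96214809. The break of ES3 spanned 12.6 kb of ES1 peaks and 7.51 kb of ES2 peaks. In Hoxd the longest were 24.6 kb in ES1, 61.9 kb in ES2 and 46.8 kb in ES3, so here ES2 had the longest. Of the 392.0 kb in ES3 breaks over the 4 windows, ES1 covered 16.5% and ES2 11.0%. In the other direction, of the 409.7 kb in ES1 breaks, ES2 covered 4.99% and ES3 2.28%. Measured in the same way in the 1775 tiles, ES1 covered 15.8% and ES2 10.9% of the ES3 breaks, and ES2 covered 4.26% and ES3 1.51% of the ES1 breaks. Pooled, the windows thus lay near the tiles, while single clusters spread around them. ES1 covered 28.1% of the ES3 breaks in Hoxa, 14.7% in Hoxb, 13.0% in Hoxc and 9.49% in Hoxd. ES3 covered 5.23%, 0%, 3.18% and 2.33% of the ES1 breaks in the same order.

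**Figure D4:**
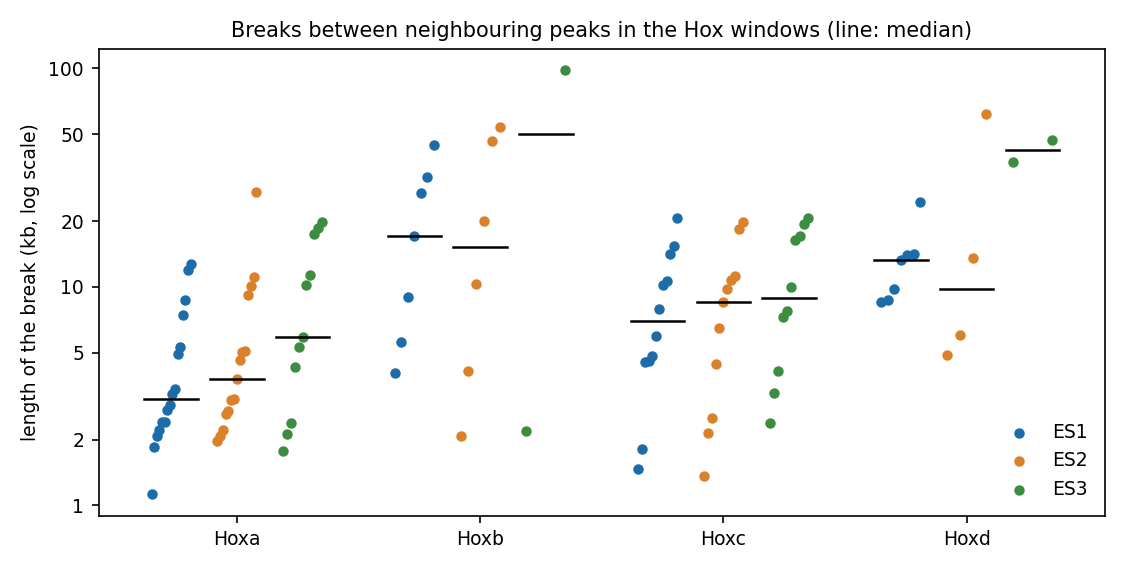
Length of every break between neighbouring peaks (kb, log scale) by cluster and list; points are single breaks and black lines their medians. The breaks of Hoxc lie at like lengths in the 3 lists, while ES3 has 2 breaks each in Hoxb and Hoxd, the longest of 97.9 kb in Hoxb.

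Peaks were counted as shared where they overlapped by at least 1 bp. Of the 29 ES3 peaks, 26 met an ES1 peak (89.7%, against 86.6% of all ES3 peaks) and 22 an ES2 peak (75.9%, against 77.1%). Of the 46 ES1 peaks, 27 met an ES2 peak (58.7%, against 61.1%) and 23 an ES3 peak (50.0%, exact binomial 95% interval 34.9 to 65.1, against 37.7%). Of the 40 ES2 peaks, 30 met an ES1 peak (75.0%, against 78.1%) and 20 an ES3 peak (50.0%, against 42.7%). These shares lay near those of the whole lists, that of ES1 peaks met by ES3 being the farthest above, with the background inside its interval. The 3 ES3 peaks that met no ES1 peak lay in Hoxa, Hoxc and Hoxd. Lying wholly inside a peak of another list was less common: 8 of the 29 ES3 peaks lay inside an ES1 peak (27.6%, interval 12.7 to 47.2), against 40.3% of all ES3 peaks. Of the 46 ES1 peaks, 3 lay inside an ES3 peak (6.52%, interval 1.37 to 17.9), against 3.82%.

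Fragmentation was read from peaks that met 2 or more peaks of another list. Of the 27 ES1 peaks met by ES2, 5 were split in this way, against 5.72% of all ES1 peaks met by ES2, and of the 23 met by ES3, 3 were split, against 7.29%. The 5 were 4 peaks of Hoxa and 1 of Hoxb, and the 3 were 2 of Hoxa and 1 of Hoxb. These peaks were 3579 to 10590 bp wide, against a median of 1684 bp in the whole ES1 list. The background shares take in peaks of all widths and were not matched for width. In the other direction ES1 split 2 of 30 ES2 peaks, against 1.69%, and 1 of 26 ES3 peaks, against 0.447%. ES3 split 2 of 20 ES2 peaks, against 4.56%, and ES2 split 0 of 22 ES3 peaks, against 1.13%. With so few peaks these counts are given as they stand.

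Merging touching peaks of the 3 lists gave 56 regions, 18 in Hoxa, 10 in Hoxb, 16 in Hoxc and 12 in Hoxd. All 3 lists were present in 18 of them (32.1%, interval 20.3 to 45.96), against 26.2% of all merged regions. By cluster these were 7 of 18 in Hoxa, 2 of 10 in Hoxb, 8 of 16 in Hoxc and 1 of 12 in Hoxd. ES1 alone made 14 of the 56 regions (25.0%, against 27.3% of all merged regions), ES2 alone 10 (17.9%, against 12.8%) and ES3 alone 2 (3.57%, against 2.97%). ES1 with ES2 made 7 (12.5%, interval 5.18 to 24.1, against 23.8%), ES1 with ES3 made 5 (8.93%, against 4.95%), and ES2 with ES3 made 0, against 2.05%. The share of ES1 with ES2 lay below that of all regions, which is inside its interval. In the 18 regions of all 3 lists, ES1 covered the most bases in 10, against 55.5% of all 8271 such regions, ES2 in 8, against 31.0%, and ES3 in 0, against 13.3%. In Hoxc ES2 covered the most in 5 of 8, and in Hoxa ES1 in 5 of 7.

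Counted by bases, 77.1% of the windows lay under no peak of any list. Of the bases under any peak, 18.5% lay in all 3 lists, against 16.6% over the genome, and 32.0% in ES1 alone, against 33.2%. As a whole the windows were thus near the genome, while single clusters spread around it: all 3 lists shared 29.9% in Hoxc, 17.4% in Hoxa, 12.7% in Hoxb and 6.54% in Hoxd. The longest stretch in ES1 alone was 5077 bp in Hoxa, at chr6:52156373-52161449, inside the widest ES1 peak. It was 2604 bp in Hoxb, 2346 bp in Hoxc and 1889 bp in Hoxd. The longest in ES1 and ES2 but not ES3 was 5129 bp in Hoxc, chr15:102765403-102770531, which is the right part of the main Hoxc region, and 4435 bp in Hoxb, chr11:96060906-96065340. The longest in ES3 but not ES1 was 1541 bp in Hoxa, chr6:52120883-52122423.

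**Figure D5:**
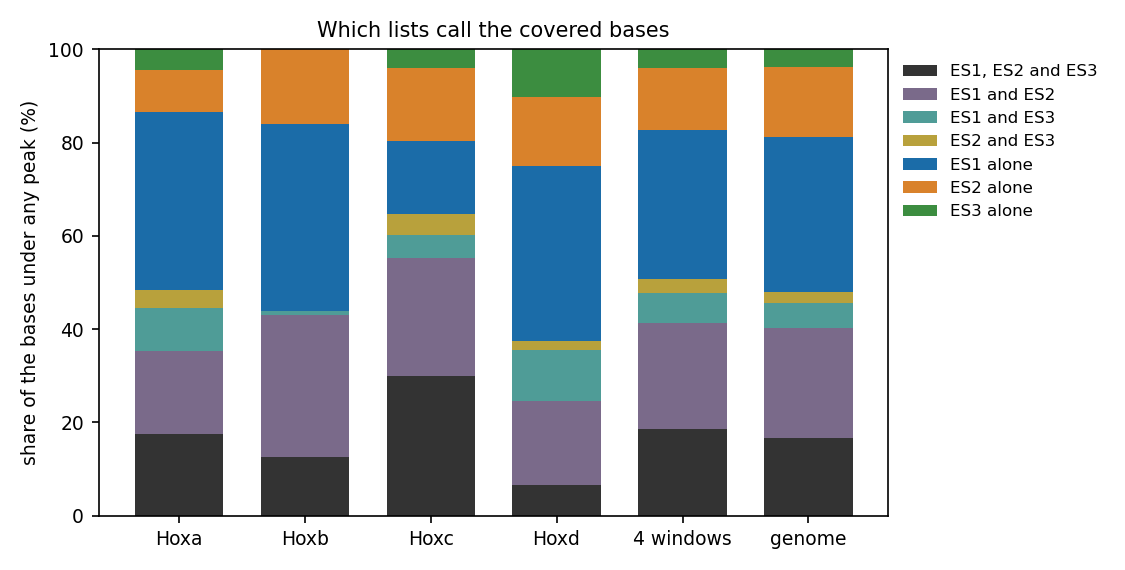
Share of the bases under any peak (%, y axis) by the lists that call them, for each Hox window, the 4 windows together and the genome; the segments of a bar add up to 100%. The segment of all 3 lists is 29.9% in Hoxc and 6.54% in Hoxd, and the bar of the 4 windows lies close to that of the genome.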

How the data were processed

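The 3 peak lists were analysed as deposited. Reads had been aligned with Bowtie to mm9, per the submitters' processing notes; its version, the peak caller and the mark of each list are, in the sources used here, not given. The score of each peak is a value of the authors, with no unit given, and the deposited inner interval (another value of the authors) always began at the peak's start. Score times inner length was a whole multiple of 1 unit per chromosome and list, with a tolerance of 0.001, and the multiple was taken as reads. That 1 unit is 1 read, and that the score is relative to the mean density of the chromosome, are assumptions.

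Covered bases, peaks, breaks, overlaps of at least 1 bp, merged regions and tiles of 150 kb were computed in Python 3.11.15 with numpy 2.4.6, pandas 2.3.3 and scipy 1.17.1. The steps were tested on simulated data. Intervals are exact 95% Poisson or binomial and cover counting error only. With no replicates no test was run. The members, windows and lists of values were chosen with earlier results of these data known. For each window the widest peak and the peak with the most reads in its inner interval were named. So were the longest break and the longest stretch per combination of lists. Other regions were named after their values were seen. The alternatives were lists of equal length by score or reads, peaks merged within 1 kb, breaks of at least 1 kb, windows widened by 20 kb, and tiles of 100 and 200 kb. Single libraries and single cells were not analysed here.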

Additional observations from a re-analysis of the deposited data

How the results depend on the processing

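Cutting ES1 and ES2 to the 12391 peaks of ES3 moved the counts and shares of the windows. By score, ES1 covered 6.94% and ES2 5.04%, with 19 and 24 peaks and 15 and 20 breaks. By reads, ES1 covered 10.8%, with 22 peaks and 18 breaks, and ES2 had 20 peaks and 16 breaks. Also by reads, 8.71% of covered bases lay in all 3 lists and 13.9% in ES1 and ES2 alone, and the merged regions were 6 in ES1 alone, 3 in ES1 and ES2 and 6 in all 3 lists. Ranking by reads counts the inner interval alone. With windows widened by 20 kb, ES1 covered 15.0%, ES2 11.0% and ES3 5.88%, and in Hoxc ES2 (18.4%) passed ES1 (17.9%). Merging peaks within 1 kb and counting breaks of at least 1 kb changed no count or covered share of the windows. Of 225 values under the alternatives, 171 stayed within 1.5 times the reported value and 54 moved further. Many of the 171 could not have moved, so the tally does not measure stability. Every break was longer than 1 kb, which fixed the outcome of merging and of counting breaks, and ES3 was not shortened in the equal lists. No called peak of the Hox windows had under 9 reads, so depth limits what a missing peak can show. No paired analysis was possible because the 3 lists have no replicates, and nothing was tested.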
